A study of Bos taurus with 4 samples.

Results

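Protein phosphatase 1 (PP1) was examined through 6 of its genes, the catalytic subunits PPP1CA, PPP1CB and PPP1CC and the regulatory subunits PPP1R2, PPP1R7 and PPP1R11. They were taken as every non-control probe that carried one of these gene names on a bovine expression array, without regard to its signal. This gave 14 probes out of 51282, and 6 of the 32429 gene names on the array. Sperm RNA of Murrah buffalo breeding bulls was hybridised to 4 single-colour arrays, 2 from high-fertile and 2 from low-fertile bulls. The groups were ranked by field conception rate and follow the sample labels here. The study's sentence on mean conception rates lists the groups in the reverse order of its values, and every sign below would turn if the labels were reversed. The ages of the bulls were not given in the sources used here. Each array held a pool of equal amounts of RNA from 2 bulls, extracted from spermatozoa selected on a Percoll density gradient. The pool was therefore the replicate, and p-values measured the spread between pools rather than between bulls. No treatment or genotype distinguished the groups. The probes were designed on cattle sequence and their match to buffalo transcripts was not tested.

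PP1 is a serine/threonine phosphatase whose catalytic subunits are closely related proteins, each of which works in complex with regulatory subunits that set its activity and location. In sperm it is best known for PPP1CC, whose testis-enriched splice form is the main PP1 catalytic subunit of mature spermatozoa, where its activity falls as motility develops in the epididymis. PPP1R2 (inhibitor 2), PPP1R7 (SDS22) and PPP1R11 (inhibitor 3) are conserved binding partners, and GSK3 kinases phosphorylate PPP1R2 and so release its inhibition.

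All probes were 60 bases long and each was printed once on each array. The pair of PPP1CA probes below is shown because it is not an independent pair of readings. The probes end and begin on the same 18 bases, which are in capitals, and both lie on the minus strand of the Btau_3.1 build, at chr29:47255524-47256215 and chr29:47255482-47256173.
PPP1CA A_73_P279816: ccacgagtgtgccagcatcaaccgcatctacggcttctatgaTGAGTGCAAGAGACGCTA
PPP1CA A_73_P324596: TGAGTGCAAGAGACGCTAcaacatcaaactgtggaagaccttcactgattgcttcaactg

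The catalytic subunits are similar in sequence, so the closest probes of different catalytic genes are shown next, with the aligned stretch in capitals. PPP1CA A_73_114991 (chr29:47254268-47254406) and PPP1CC A_73_P070856 (chr17:57333424-57334438) had 29 identical bases out of 52 aligned. PPP1CB A_73_P310421 and PPP1CC A_73_P289776 (chr17:57334788-57334847) had 26 out of 36.
PPP1CA A_73_114991: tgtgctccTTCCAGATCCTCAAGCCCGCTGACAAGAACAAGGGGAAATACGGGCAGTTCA
PPP1CC A_73_P070856: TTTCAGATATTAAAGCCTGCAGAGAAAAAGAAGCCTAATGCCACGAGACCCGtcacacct
PPP1CB A_73_P310421: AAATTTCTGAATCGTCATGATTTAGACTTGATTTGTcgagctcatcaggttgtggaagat
PPP1CC A_73_P289776: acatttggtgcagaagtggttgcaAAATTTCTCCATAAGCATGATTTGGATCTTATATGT

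Over the 78 pairs of probes from different member genes, the longest identical run was 9 bases. Of the 14 probes, 7 covered more than 60 bases of the genome and so joined separate exons. The array annotation did not state which PPP1CC splice form each of its 4 probes reports, and none of them is named here as specific to the sperm form.

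Only PPP1CA and PPP1R11 gave readings that could be compared between the groups. A probe was tested when either group had both of its arrays marked well above background by the scanner software. This held for 5 of the 14 member probes, namely the 3 of PPP1CA and the 2 of PPP1R11. PPP1CB, PPP1CC, PPP1R2 and PPP1R7 had no tested probe. One PPP1CA and one PPP1R11 probe were well above background on all 4 arrays. The other 3 tested probes missed that mark on the second low-fertile array and entered the test through the high-fertile pair alone.

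The second low-fertile array read fewer PP1 probes than the others. Member probes well above background numbered 5 and 6 on the high-fertile arrays, 5 on low fertile 1 and 2 on low fertile 2. The scanner software replaces a spot that is not above background by a stand-in (surrogate) value, and it did so for 3, 4 and 3 member probes on the first 3 arrays against 8 on low fertile 2. The same array stood apart over all probes, with surrogates for 39.3% of them against 18.9% to 20.5% on the others, and 13033 probes well above background against 23228 to 25642. Low fertile 2 also had higher surrogate values for member probes, at 5.88 to 6.98 against 3.11 to 4.16 on the others. In RNA pooled from many cells, fewer cells of a type cannot be told apart from less RNA per cell. The part of this array in the member values was not tested beyond leaving it out.

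**Figure D1:**
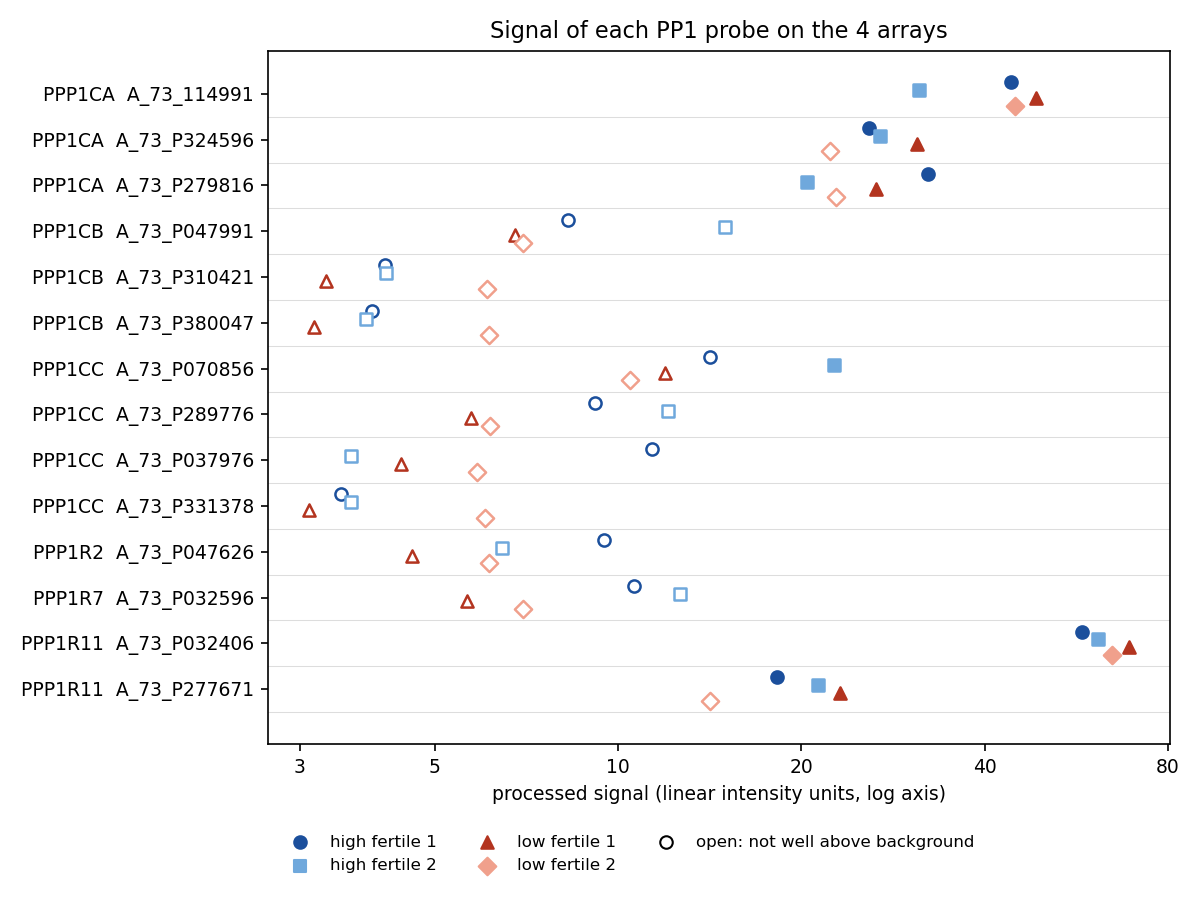
Processed signal of the 14 PP1 probes on each array, in linear intensity units on a log axis, with 1 row per probe and 1 marker per array. Filled markers were well above background and open markers were not: PPP1CA and PPP1R11 carry nearly all the filled ones, and PPP1CC has 1, on high fertile 2.

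Among the catalytic subunits, PPP1CA, a form made in most tissues, was read by all 3 of its probes. Probe A_73_114991 gave signals of 44.3 and 31.2 in high-fertile against 48.5 and 44.9 in low-fertile pools. Both low-fertile signals lay above both high-fertile ones, but the highest high-fertile and lowest low-fertile signals were closer than the scanner's own error estimates, which were 12.1% to 17.3% of the signal. On the normalized log2 scale, in which the 75th percentile of each array is set to 0, the level was 0.01 ± 0.37 (SD, n = 2) in high-fertile against 0.42 ± 0.05 (SD, n = 2) in low-fertile sperm. The low-fertile minus high-fertile difference was 0.41 (SE 0.21, 95% interval -0.11 to 0.94), with an adjusted p of 0.196 by limma. The interval therefore held 0, and also held changes up to 1.92-fold higher in low-fertile sperm.

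The overlapping pair of PPP1CA probes read no such separation. Probe A_73_P324596 gave 25.8 and 26.9 in high-fertile against 31.0 and 22.3 in low-fertile pools, a log2 difference of 0.08 (SE 0.16, interval -0.33 to 0.49, adjusted p = 0.743 by limma). Probe A_73_P279816 gave 32.3 and 20.4, then 26.5 and 22.9, a log2 difference of 0.03 (SE 0.25, interval -0.59 to 0.64, adjusted p = 0.947 by limma). In each of them one group's values lay within or across the range of the other's. Low fertile 2 was not well above background for either probe.

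PPP1CB, the catalytic form also found in myosin phosphatase, never rose well above background with any of its 3 probes. A_73_P047991 read 8.28 and 15.0 in high-fertile against 6.76 and 6.97 in low-fertile pools, where the 6.97 on low fertile 2 was a surrogate value. A_73_P310421 and A_73_P380047 read between 3.17 and 6.15 and carried a surrogate value on all 4 arrays, so their highest value, on low fertile 2 for both, is that array's stand-in level and not a measured signal.

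PPP1CC, the catalytic subunit with the sperm-enriched splice form, was well above background on a single array, with 1 of its 4 probes. A_73_P070856 read 14.2 and 22.6 in high-fertile against 11.9 and 10.5 in low-fertile pools, and passed the mark only on high fertile 2. Both high-fertile values were above both low-fertile values, and none of the 4 was a surrogate. The 14.2 and the 11.9 were closer than their error estimates of 4.09 and 3.39. Since only 1 of the 4 values was well above background, no fold or test is given. A_73_P289776 read 9.17 and 12.1 against 5.73 and 6.17, in the same order, but the 6.17 on low fertile 2 was a surrogate value. The remaining probes could not show whether the order repeats. A_73_P037976 read 11.4 and 3.65 against 4.40 and 5.88, with surrogates on high fertile 2 and low fertile 2. A_73_P331378 had surrogate values only, from 3.11 to 6.04.

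Of the regulatory subunits, PPP1R2, which inhibits the free catalytic subunit, had 1 probe (A_73_P047626, chr1:73238223-73239857, plus strand). It read 9.50 and 6.46 in high-fertile against 4.59 and 6.13 in low-fertile pools, well above background on none of them. The 6.13 on low fertile 2 was a surrogate value. PPP1R7, a leucine-rich repeat partner of PP1, also had 1 probe (A_73_P032596, chr3:126340945-126344185, plus strand). It read 10.6 and 12.65 in the high-fertile pools against 5.65 and 6.98 in the low-fertile pools, likewise never well above background. The 6.98 on low fertile 2 was again a surrogate value, and no fold is given for either gene. A predicted PPP1R2-like gene, LOC508096, chosen after its values were seen, was well above background on every array, at 181.8 and 222.1 in the high-fertile and 197.1 and 176.4 in the low-fertile pools. Its log2 difference was -0.02 (adjusted p = 0.930 by limma), and it is a separate gene from PPP1R2.

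PPP1R11, a small heat-stable inhibitor of PP1, was read by both of its probes. A_73_P032406 (chr23:28862202-28862261) gave 57.9 and 61.4 in high-fertile against 69.0 and 64.8 in low-fertile pools, so that every low-fertile signal exceeded every high-fertile one. The 61.4 and the 64.8 were closer than the scanner's own error estimates, which were 11.1% to 14.0% of the signal over the 4 arrays. Its normalized log2 level was 0.69 ± 0.05 (SD, n = 2) against 0.94 ± 0.06 (SD, n = 2), a difference of 0.25 (SE 0.14, interval -0.11 to 0.61, adjusted p = 0.241 by limma). The neighbouring probe A_73_P277671 (chr23:28862054-28862113) gave 18.3 and 21.3, then 23.1 and 14.2, and its lowest value was on low fertile 2, where it was not well above background. Its log2 difference was -0.04 (SE 0.22, interval -0.59 to 0.51, adjusted p = 0.911 by limma), with groups that overlapped. The probes of PPP1R11, like those of PPP1CA, thus differed among themselves in whether the groups separated.

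No PP1 probe passed the test. By limma with Benjamini-Hochberg adjustment, 0 of the 5 tested member probes had an adjusted p under 0.05, against a background of 26.8% of the 21033 probes tested, 17.6% lower and 9.22% higher in low-fertile sperm. The count at an unadjusted p under 0.05 was also 0, where 8741 of the 21033 tested probes passed it by limma. The methods' t-test gave 0 after adjustment and 1 before it, PPP1R11 A_73_P032406. By that test 6084 of the 21033 probes passed before adjustment. The groups did not overlap in 2 of the 5 member probes, both times with the low-fertile pools higher. Over all tested probes with a value on every array they did not overlap in 69.1%, and in 33.6% with the low-fertile pools higher.

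The standard errors set how large a difference had to be for these arrays to call it. The median log2 difference of the 5 member probes was 0.08 (range -0.04 to 0.41), and that of all tested probes was -0.00 (quartiles -0.45 and 0.32). With standard errors of 0.14 to 0.25, a member probe would have needed a log2 difference of 0.51 to 0.88 in size to pass. Differences above 0 were found for 4 of the 5 probes under the 75th percentile scaling. When the arrays were scaled to their spike-in controls instead, which moved the median of all tested probes by -0.37, A_73_114991 alone remained above 0.

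**Figure D2:**
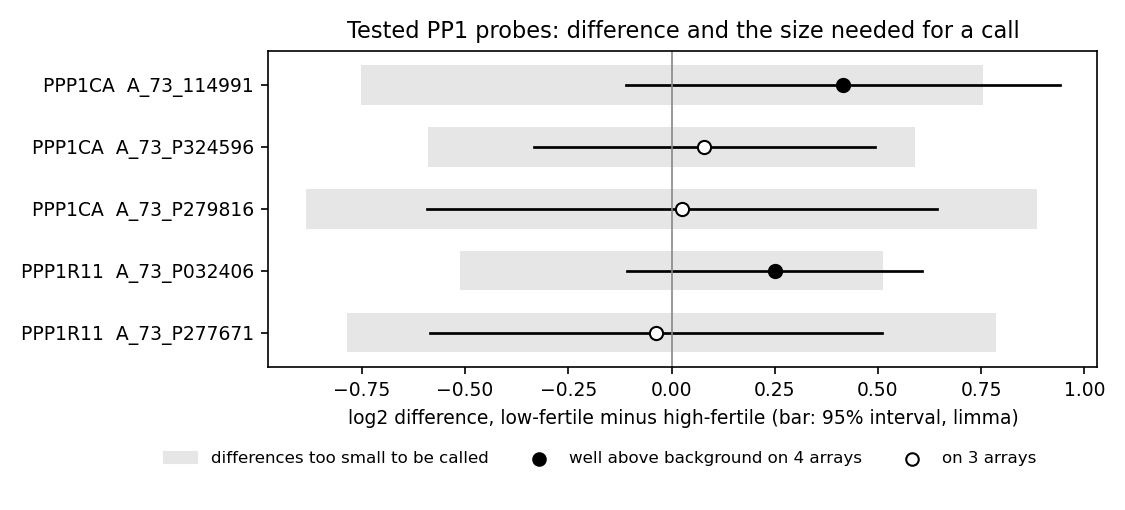
Log2 difference (low-fertile minus high-fertile) of the 5 tested PP1 probes, with 95% intervals from limma as bars and the range of differences too small to be called as grey bands. Every point lies inside its band and every interval crosses 0, and filled points mark the 2 probes that every array read well above background.

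The tested and untested PP1 probes also differed in base composition. The 5 tested probes held 45% to 53.3% G and C bases and the 9 untested ones 35% to 45%. Over the whole array the share of probes tested rose from 19.2% at 35 to below 40% G and C, where 0 of 6 member probes were tested, to 69.3% at 50 to below 55%, where both member probes were. Between these, 35.6% of probes were tested at 40 to below 45% (0 of 2 member probes) and 43.0% at 45 to below 50% (3 of 4). The part of base composition in which PP1 genes could be read was not tested.

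**Figure D3:**
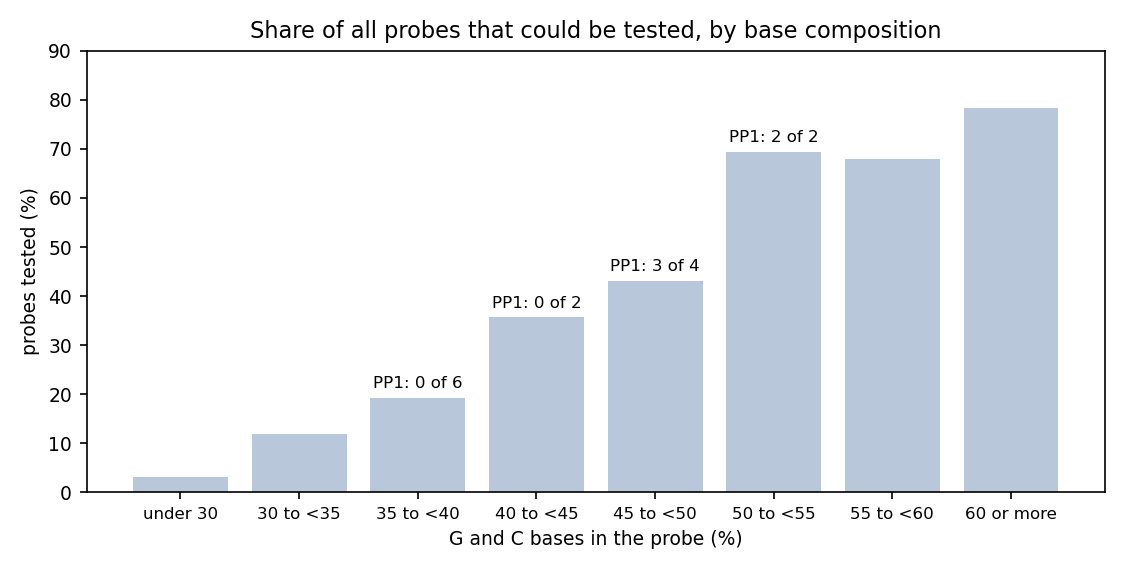
Percent of all probes that could be tested, in bins of the percent of G and C bases in the probe, with the number of PP1 probes tested out of those in the bin written above the bar. The bars climb from left to right up to 50 to below 55%, and all tested PP1 probes lie in the bins from 45 to below 55%.

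Other genes for PP1 regulatory subunits were taken from a list of 36 names, of which 30 were on the array and 15 had a tested brightest probe. Of the 15, 2 were called lower and 0 higher in low-fertile sperm at an adjusted p under 0.05 by limma, where the background over genes by their brightest probe was 25.9%, 16.3% lower and 9.6% higher. Both called genes entered the test through the high-fertile pair alone, the group in which they were high. When only probes well above background on every array were fitted, 0 of 9 regulatory genes were called lower and 2 higher. Over all probes in that fit, 1625 of 12552 were called lower and 2714 higher. Neither of the genes called lower before was in it, so its counts cover fewer genes. The median log2 difference of the 15 was 0.20, against 0.01 over all 16549 genes tested. Of the 9 genes well above background on all arrays, 8 were above 0 and 0 were called, with a median of 0.37 against 0.15 over the 10588 genes read on all arrays, of which 63.4% were above 0. Of the 6 that were not well above background on low fertile 2, 5 were below 0, as were 73.4% of all genes tested that this array did not read.

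The genes called lower, named after their values were seen, were PPP1R13B, a partner of p53 also called ASPP1, and PPP1R15B, which directs PP1 to the initiation factor eIF2. PPP1R13B read 70.0 and 56.2 in high-fertile against 41.9 and 30.1 in low-fertile pools, a log2 difference of -0.73 (adjusted p = 0.043 by limma). Its second tested probe differed by 0.27 and was not called. PPP1R15B read 124.4 and 29.1 against 4.35 and 9.71, a log2 difference of -3.12 (adjusted p = 0.035 by limma). No low-fertile array was well above background for it, so the size is uncertain and no fold is given. Its high-fertile pools stood far apart, at 1.76 and -0.35 on the normalized log2 scale. Its other 2 probes were well above background on no array. The count of 2 became 0 without high fertile 1 or when the 75th percentile was taken over detected probes.

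Probes of one regulatory gene did not always give the same call. Over all 21 tested probes of the list, 5 were called, 3 lower and 2 higher in low-fertile sperm, a share near the 26.8% of all tested probes. The third lower call was a probe of PPP1R1B, a PP1 inhibitor of dopamine-responsive neurons (-1.27 on the log2 scale, adjusted p = 0.008 by limma), which was well above background in the high-fertile pair alone. The higher ones, also picked out after their values were seen, were second probes of PPP1R37 (1.14 on the log2 scale, adjusted p = 0.012 by limma) and PPP1R12C, a myosin phosphatase targeting subunit (0.81, adjusted p = 0.034 by limma). The PPP1R12C probe entered the test through the low-fertile pair alone, and the PPP1R37 probe was the only one of the 5 well above background on all 4 arrays. The brightest probe of PPP1R37 differed by 0.20 and that of PPP1R12C by 0.38, neither of them called. That of PPP1R1B was not tested, being well above background on high fertile 1 and low fertile 1 only. It read 25.5 and 16.4 in high-fertile against 31.1 and 28.2 in low-fertile pools, the opposite direction to the called PPP1R1B probe.

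Among the catalytic subunits of other serine/threonine phosphatases, 11 of 12 listed genes were on the array, 6 were tested and 1 was called lower, against 25.9% of all genes called and 16.3% called lower. PPP2CA, the alpha catalytic subunit of PP2A, read 61.1 and 45.02 in high-fertile against 26.5 and 12.7 in low-fertile pools, a log2 difference of -1.43 (adjusted p = 0.030 by limma). It was not well above background on low fertile 2 and entered the test through the high-fertile pair alone. The fit of only probes well above background on every array held 4 of the 6 genes and left PPP2CA out. The median of the 6 was -0.32. The count of 1 became 0 without high fertile 1, high fertile 2 or low fertile 2, and fitting only probes well above background on every array gave 0 lower and 1 higher. Of the kinases that act on PPP1R2, GSK3A read 36.0 and 26.9 against 31.7 and 31.8, a log2 difference of 0.11 (adjusted p = 0.698 by limma). Its second tested probe differed by -0.27 and was not called. GSK3B read 57.2 and 52.7 against 28.8 and 23.4, a log2 difference of -0.995 (adjusted p = 0.008 by limma), and it too was not well above background on low fertile 2 and entered through the high-fertile pair alone. Another GSK3B probe was well above background on low fertile 1 alone, where it read 63.6, and the remaining one on no array.

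**Figure D4:**
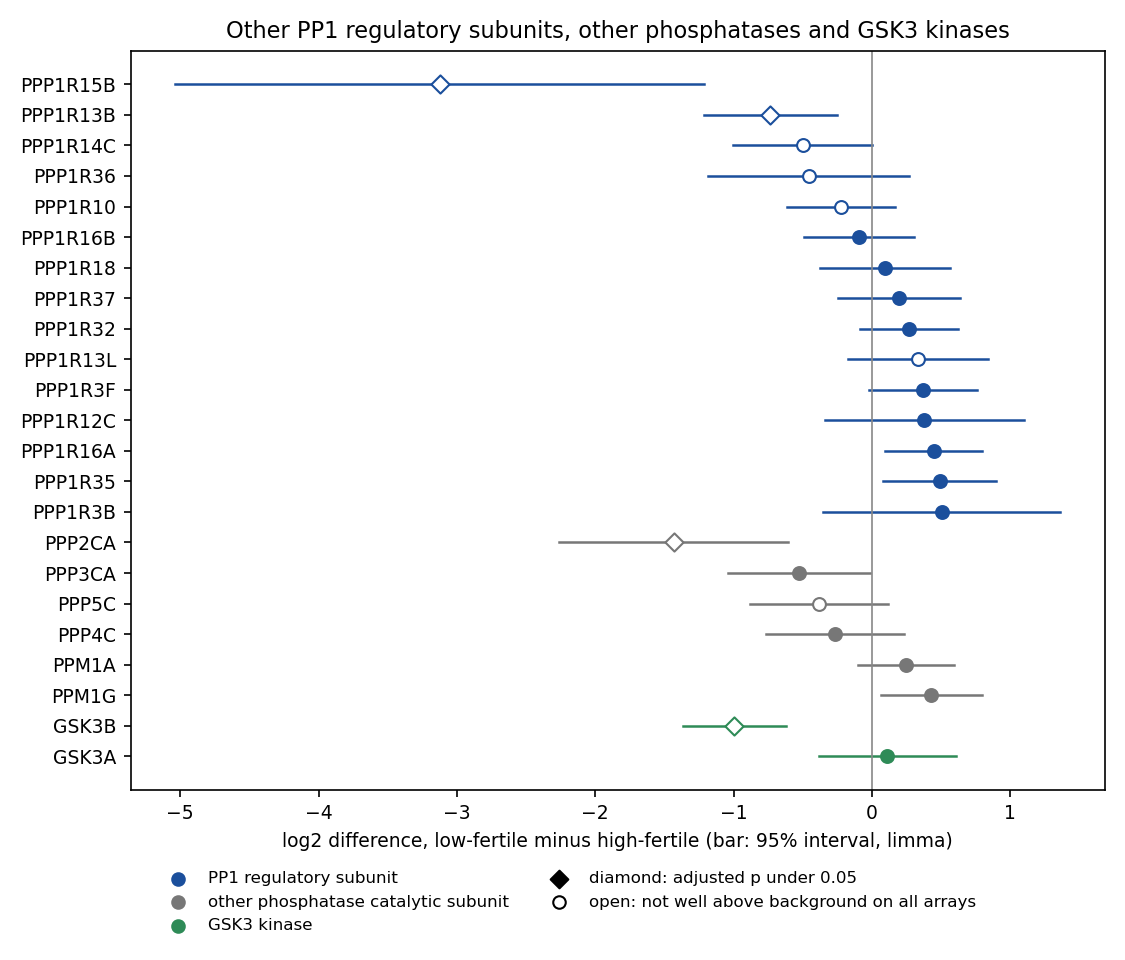
Log2 difference (low-fertile minus high-fertile) of the tested genes of 3 related groups by their brightest probe, with 95% intervals from limma as bars. Diamonds mark adjusted p under 0.05 and open symbols genes not well above background on all arrays: all 4 diamonds are open and lie below 0.

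The genes whose profile over the 4 arrays was nearest to a member were found by Euclidean distance between centred log2 values, for the 2 members read on all arrays and among 5782 genes. Nearest to PPP1CA were C2H1orf201 (distance 0.04), GPR152 (0.06) and ZC2HC1B (0.07), and nearest to PPP1R11 were GFRA4 (0.01), CORO7 (0.02) and BLCAP (0.02). With 4 arrays many genes lie close to any profile, 141 of them within 0.2 of PPP1CA and 895 within 0.2 of PPP1R11, so these neighbours describe the values only.

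Markers of sperm and of other cells bear on what RNA the PP1 probes could read. Of 12 sperm genes, 6 were well above background on both high-fertile and 4 on both low-fertile arrays. ACR, ODF1, PRM1 and TNP1 were read on all arrays, while AKAP4, LDHC, PGK2 and SMCP were on none, and the summed normalized level ran from 20.4 to 24.95. Of 7 leukocyte genes, 6 were well above background on both high-fertile and 5 on both low-fertile arrays, CD3E on none, and their summed level was 551.3 to 584.1 in the high-fertile against 774.2 to 852.4 in the low-fertile pools. LYZ and PTPRC made up 95.5% to 97.0% of that sum, and without them it was 23.7 to 24.7 against 25.2 to 25.3. Of 5 epithelial genes 3 were read in each group, with sums of 18.6 to 21.2, and of 4 red cell genes 1 was read on both high-fertile and 2 on both low-fertile arrays, with sums of 5.01 to 8.22. PPP1CA and PPP1R11 are made in most cell types, and the part of other cells in their values was not tested.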

How the data were processed

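The deposited scanner files gave linear intensity values per spot from Agilent Feature Extraction 11.5.1.1, background-subtracted, with gene names and Btau_3.1 positions per the file headers. The authors also deposited a value table on a log2 scale after a percentile shift, used as an alternative. All 4 arrays shared 1 slide and 1 scan. Here the processed intensity was log2-transformed and the 75th percentile of each array's non-control probes subtracted. Outlier spots were left out and spots of a probe averaged, and a mark was kept when a share of 0.5 or more of a probe's spots had it. Probes that both arrays of either group read well above background were fitted with limma 3.58.1 in R 4.3.3 (lmFit, eBayes), group as the only term, with Benjamini-Hochberg adjustment over 21033 probes at 0.05. Genes in lists were read by their brightest probe. The fit was tested on simulated data. Figures and summaries were made in Python 3.11.15.

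Named were all member probes, GSK3A and GSK3B, and the 3 nearest profiles of each member read on all arrays. List genes whose brightest probe was called and well above background on all 4 arrays were also to be named (there were none). Other genes named were chosen after their values were seen. The members and lists were chosen with earlier results of these data known. The shared replicate numbers do not pair the pools (correlation of their deviations 0.01 over 21024 probes). The number of arrays limits the precision. Alternatives changed the background correction, scaling, filter, outlier and patch handling, replicate block, test and values used, and left out each array in turn. The cattle labels of these buffalo samples follow the array design.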

Additional observations from a re-analysis of the deposited data

How the results depend on the processing

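The member count of 0 held under every alternative run, including no filter (0 of 14). Without the filter 2 of the 14 had an unadjusted p under 0.05 by limma, where 9278 of all 51282 probes did. They were PPP1R7 A_73_P032596 (adjusted p = 0.259 by limma) and PPP1CC A_73_P289776 (adjusted p = 0.267 by limma). Each had a surrogate value on low fertile 2, so neither is read as a difference. Without high fertile 1, PPP1CA A_73_114991 differed by 0.67. A_73_114991 of PPP1CA kept its sign, but its difference of 0.41 shrank to 0.04 with spike-in scaling, 0.14 with normexp and 0.15 without high fertile 2. Signs turned with spike-in scaling for A_73_P279816 (-0.346), A_73_P324596 (-0.292) and A_73_P032406 (-0.121), with normexp for A_73_P279816 (-0.033) and A_73_P277671 (0.028), and with quantile normalization for A_73_P277671 (0.064). Leaving out an array gave -0.314 (high fertile 2) to 0.365 (high fertile 1) for A_73_P279816, -0.067 (low fertile 1) to 0.226 (low fertile 2) for A_73_P324596, and -0.300 (low fertile 1) to 0.225 (low fertile 2) for A_73_P277671, which also turned without high fertile 2 (0.066). The cause was not tested. None of these was called.

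The 2 regulatory genes called became 0 with the percentile over detected probes, no filter or the methods' t-test, 1 with quantile normalization and 4 with spike-in scaling, 3 with normexp (1 lower, 2 higher) or the median over tested probes (2 lower, 1 higher), 2 among probes well above background on all arrays (0 lower, 2 higher), and 0 to 1 leaving out an array (0 without high fertile 1, 1 without each of the others). The 1 other phosphatase became 0 with the percentile over detected probes, no filter or the t-test, 2 with normexp (1 lower, 1 higher), 1 among probes well above background on all arrays (0 lower, 1 higher), and 0 to 2 leaving out an array (2 without low fertile 1, 0 without each of the others). Over all probes, 5632 calls became 0 with no filter (9278 unadjusted) and with the t-test (6084 unadjusted), and 2640 to 4989 leaving out an array, the lowest without high fertile 2, with 2872 without high fertile 1. Of the calls, 65.6% were lower in low-fertile sperm, 92.1% with spike-in scaling, 37.5% among probes well above background on all arrays, where the median of all probes moved by 0.15, and 72.2% to 77.3% leaving out an array. With the replicate block the calls were 0 of 5 member probes, 2 regulatory genes, 1 other phosphatase and 5331 probes, and it ended no call count among these. The slide as a block was not run, since all arrays were on 1 slide. Signals near background limit PPP1CB, PPP1CC, PPP1R2 and PPP1R7 to values without a test under the main filter.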
